A study of Ovis aries with 7 samples.

Results

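The genes described here encode the machinery that removes maternal messenger RNA in early embryos. They are 10 genes chosen by name, out of 31304 rows in the table and 16539 rows with a gene symbol. They are the adaptors BTG4 and TOB1, the CCR4-NOT subunits CNOT1, CNOT6, CNOT6L, CNOT7 and CNOT8, the nuclease PAN2, the recruiter ZFP36L2 and the decapping cofactor DCP1A. All 10 have a row in the table. The study collected polyA RNA from 8-cell sheep embryos (Ovis aries). They were made either by in vitro fertilization, IVF, with 3 libraries, or by somatic cell nuclear transfer, SCNT, with 4 libraries, a method that puts the nucleus of a body cell into an egg freed of its own. Libraries were amplified for 20 PCR cycles and sequenced by Smart-seq2 as paired reads of 150 nucleotides. Values used here come from the 3 IVF libraries. The remaining 4 columns bear a name found in no sample label and were left aside. SCNT embryos are thus not analysed here, and the methods are not compared. The labels give no breed, parentage or number of embryos for a library, and they do not say which libraries came from separate trials, so the spread between replicates may be technical.

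An egg and a newly fertilized embryo live on messenger RNA stored during oocyte growth. Around the time the embryonic genome is switched on, much of that store is destroyed, usually beginning with removal of the poly(A) tail by deadenylases. PAN2 with PAN3, and the larger CCR4-NOT complex, shorten the tail. Adaptor and RNA-binding proteins bring these enzymes to particular messengers, and shortened messengers then lose the cap or are degraded from the other end. In mouse and human oocytes BTG4 is known as the adaptor that links CCR4-NOT to maternal messengers. Neither an oocyte nor an earlier stage was measured, so the levels below describe the RNA of the machinery and not the clearance itself. In pooled RNA, fewer cells with a transcript and less transcript per cell cannot be told apart.

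Values are TPM, a scale on which each library has the same total and each gene is corrected for its length. The gene lengths and the counting step are not stated, so ratios between different genes below are approximate. PolyA RNA was collected, and how far messengers with shortened tails were missed is unknown. Sequencing depth cannot be read from TPM, so it is unknown, and neither counting intervals nor floors are given. Between 10973 and 12246 rows reached 1 TPM per library. Of 5 listed early embryo markers 3 were analysed, namely ZSCAN4, KLF17 and ARGFX. All 3 were at 1 TPM or more in every library, as were 6 of 6 oocyte genes. Their levels differed between libraries. All 3 early embryo markers were highest in replicate 2, with ZSCAN4 at 54.7, 216 and 69.3 TPM in replicates 1, 2 and 3. ARGFX measured 376, 1022 and 444 TPM, and KLF17 98.9, 117 and 105. Of the oocyte genes 4 were highest in replicate 2, 1 in replicate 1 and 1 in replicate 3. The bearing of this on the levels below was not tested. Of the cumulus and granulosa markers 1 of 8 reached 1 TPM throughout, namely HAS2. It measured 9.86, 13.1 and 7.09 TPM in replicates 1, 2 and 3. The 8 markers summed to 10.7, 17.2 and 10.1 TPM in the same order, and FOXL2 and PTX3 were listed at 0. PTX3 lies wholly inside another gene in the gene table. Of the fibroblast markers 2 of 9 reached 1 TPM throughout, namely VIM and PDGFRA. VIM measured 6.48, 8.84 and 8.37 TPM in replicates 1, 2 and 3, and PDGFRA 1.11, 3.97 and 2.52. The 9 markers summed to 11.3, 19.1 and 15.3 TPM, and LUM was listed at 0 in replicates 2 and 3. Both sums were highest in replicate 2, and their part in the values below was not tested.

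The 10 genes covered a wide span of levels and kept nearly the same order in every library. At the top stood BTG4 and CNOT7, which together took 86.3, 77.6 and 83.8% of the TPM of all 10 genes in replicates 1, 2 and 3. At the bottom was PAN2. Detection, taken as 1 TPM or more in every library, held for 9 of the 10, against 49.0% of all symbol rows, and PAN2 was the exception. The median gene of the 10 was at 14.3, 20.6 and 15.1 TPM in replicates 1, 2 and 3, a mean of 16.7 ± 3.41 (SD, n = 3). Over all symbol rows the median was 1.51 ± 0.213 TPM, and over the 8107 symbol rows detected throughout it was 10.8 ± 1.30. The 10 genes were chosen for a known role and with earlier values known, so their level as a list is a description.

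BTG4, the adaptor that carries CCR4-NOT to maternal messengers, had the highest level. It measured 504 TPM in replicate 1, 272 in replicate 2 and 329 in replicate 3, a mean of 368 ± 121 (SD, n = 3). Replicate 1 was the high library, 1.85 times the lowest. BTG4 ranked 332nd among the symbol rows by mean, above 98.0% of them, and first among the 10 genes in each library. The gene table lists no gene that overlaps it. The symbol rows nearest to BTG4 by Euclidean distance of log2(TPM + 1) over the 3 libraries were TRAPPC2 at 376 ± 119 TPM, NDUFB8 at 351 ± 101 and SDHAF4 at 367 ± 92.6, at distances of 0.088, 0.14 and 0.15. There were 130 symbol rows within a distance of 1, and with 3 libraries of a single kind such likeness is mainly likeness of level.

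TOB1, a relative of BTG4 that also binds the CNOT7 and CNOT8 nucleases, was far lower. It measured 6.09, 9.93 and 9.72 TPM in replicates 1, 2 and 3, a mean of 8.58 ± 2.16 (SD, n = 3). Replicate 1, which had the most BTG4, had the least TOB1. BTG4 exceeded TOB1 by 5.25 ± 0.80 on the log2(TPM + 1) scale, in 3 of 3 libraries, and the ratio of the mean TPM values was 42.9. TOB2, the close paralog of TOB1, was higher than TOB1 in each library, at 41.2, 50.1 and 43.2 TPM. The difference of TOB1 minus TOB2 was -2.28 ± 0.27 (log2, n = 3), and the ranges of the genes did not overlap.

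The other members of the BTG and TOB family, which restrain proliferation in somatic cells, were abundant too. All 4 of those listed beside the 10 genes were detected throughout, with a list median of 104 ± 8.11 TPM. BTG1 was above BTG4 by mean, at 325, 848 and 451 TPM in replicates 1, 2 and 3. The order of the pair depended on the library: BTG4 was higher in replicate 1 and BTG1 in replicates 2 and 3. BTG3 stood at 127 ± 22.0 TPM, so TOB1 was the lowest of the 6 family members measured.

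**Figure D1:**
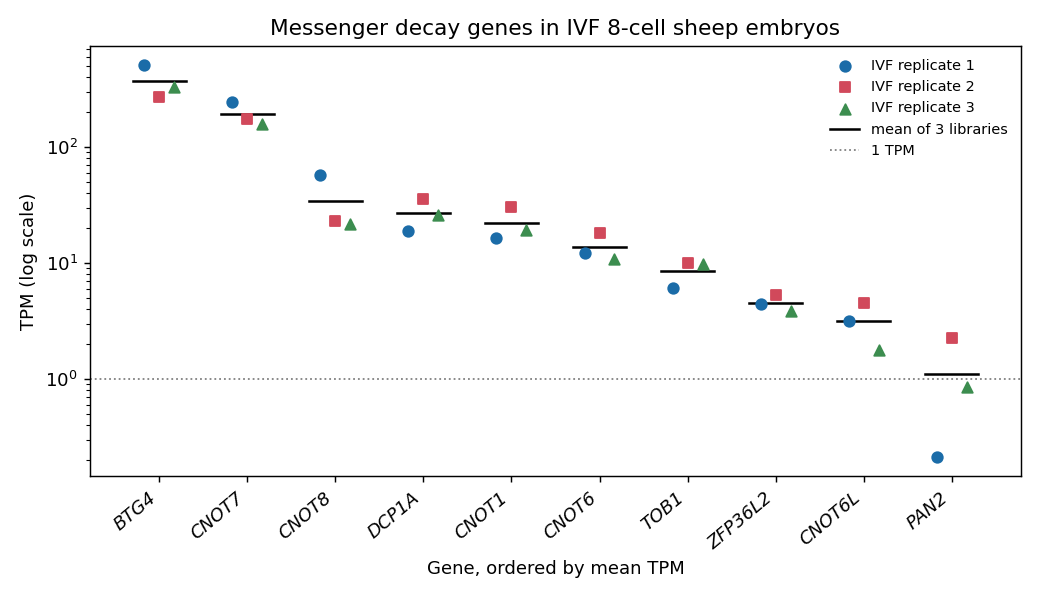
TPM (log scale) of each of the 10 genes in IVF replicates 1, 2 and 3 (circles, squares, triangles), with the mean as a black line and 1 TPM as a dotted line. BTG4 (mean 368) and CNOT7 (mean 192) lie above all other genes in every library, and only PAN2 falls under 1 TPM.

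The catalytic part of CCR4-NOT holds a nuclease of each of 2 types. CNOT7 and CNOT8 are alternative Caf1-type subunits, and CNOT6 and CNOT6L alternative Ccr4-type subunits. CNOT7 measured 242, 174 and 159 TPM in replicates 1, 2 and 3, a mean of 192 ± 44.5 (SD, n = 3). Replicate 1 was again highest, the range was 1.53-fold, and CNOT7 lay above 96.6% of symbol rows. CNOT8 measured 56.9, 22.9 and 21.9 TPM in the same order, a mean of 33.9 ± 19.9. Its replicate 1 stood at 2.60 times the lowest library, while the other libraries nearly coincided, and without replicate 1 the mean was 22.4 TPM. CNOT7 exceeded CNOT8 by 2.58 ± 0.44 (log2 of TPM + 1) in 3 of 3 libraries, and made up 85.7 ± 4.13% of their joint TPM.

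Ccr4-type subunits were lower. CNOT6 measured 12.3, 18.2 and 10.8 TPM in replicates 1, 2 and 3, a mean of 13.7 ± 3.93 (SD, n = 3). CNOT6L measured 3.15, 4.55 and 1.77 TPM in the same order, a mean of 3.16 ± 1.39. Both were highest in replicate 2 and lowest in replicate 3. CNOT6L minus CNOT6 was -1.85 ± 0.21 on the log2(TPM + 1) scale, lower in 3 of 3 libraries without overlap of the ranges, and CNOT6L made up 18.2 ± 3.53% of the pair. The sum of CNOT7 and CNOT8 was 19.4, 8.67 and 14.4 times that of CNOT6 and CNOT6L in replicates 1, 2 and 3. That ratio was thus smallest in replicate 2, where the Ccr4-type genes were at their highest.

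CNOT1, the large scaffold on which the complex assembles, measured 16.4, 30.3 and 19.4 TPM in replicates 1, 2 and 3, a mean of 22.0 ± 7.33 (SD, n = 3). It was lowest where CNOT7 was highest, and CNOT7 stood at 14.8, 5.76 and 8.20 times CNOT1 in the same order. CNOT2, a subunit of the module that docks on the scaffold, was lower than CNOT1 in 3 of 3 libraries, with CNOT1 minus CNOT2 at 1.63 ± 0.10 (log2 of TPM + 1). This was the steadiest of the differences computed between pairs. Of the 6 subunits outside the 10 genes, all were detected throughout, and their list median was 12.9 ± 3.13 TPM. Among the 11 subunits CNOT7 was first, CNOT10 next and CNOT9 after it in every library, and CNOT6L was last in every library. CNOT10 stood at 118 ± 43.1 TPM, and CNOT9, which contacts recruiting proteins, at 85.6 ± 16.0. CNOT3 was uneven, at 20.0, 4.58 and 8.46 TPM in replicates 1, 2 and 3.

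PAN2, the nuclease that trims long poly(A) tails, had the lowest level of the 10 genes. It measured 0.215 TPM in replicate 1, 2.24 in replicate 2 and 0.851 in replicate 3, a mean of 1.10 ± 1.04 (SD, n = 3). The SD was nearly as large as the mean, and replicate 2 alone passed 1 TPM. PAN3, the partner that brings PAN2 to its substrates, measured 11.6, 18.3 and 7.22 TPM in replicates 1, 2 and 3. PAN2 minus PAN3 was -2.70 ± 0.62 on the log2(TPM + 1) scale, lower in 3 of 3 libraries, and the mean TPM of PAN3 was 11.2 times that of PAN2. Without replicate 2 the mean of PAN2 was 0.533 TPM and that ratio 17.7. A list of other poly(A) nucleases also holds relatives and partners of such enzymes, PAN3 among them. Of its 6 genes 5 were detected throughout, with a list median of 7.45 ± 2.31 TPM. NOCT, a relative of the Ccr4-type nucleases, led the list at 81.3 ± 37.0 TPM. PAN3 was next at 12.4 ± 5.60, and ANGEL1 was last at 0.633 ± 0.0539. Whether NOCT acts on poly(A) was not tested.

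**Figure D2:**
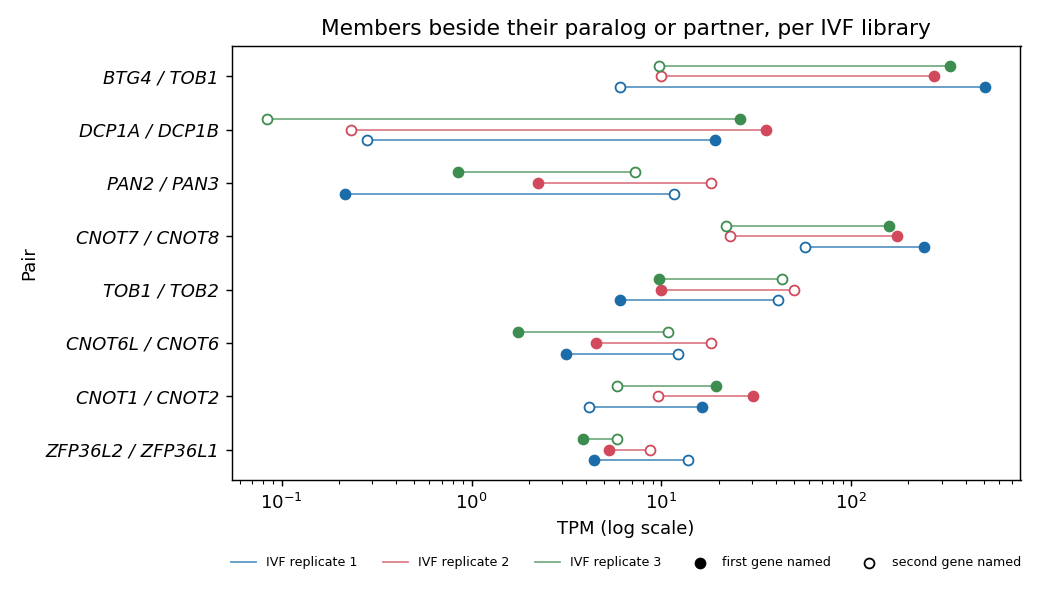
TPM (log scale) of the 8 pairs, 1 line per IVF library joining the first gene named (filled) to the second (open). The filled and open points of a pair do not overlap in any of the 8 pairs, and BTG4 with TOB1 and DCP1A with DCP1B are the widest apart, with mean log2 differences of 5.25 and 4.50.

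ZFP36L2 binds AU-rich elements in messengers and recruits CCR4-NOT, and it is needed in mouse oocytes. It was the steadiest of the 10 genes, at 4.43, 5.29 and 3.87 TPM in replicates 1, 2 and 3, a mean of 4.53 ± 0.713 (SD, n = 3) with a coefficient of variation of 15.7%. Its paralog ZFP36L1 was higher in 3 of 3 libraries, at 13.8, 8.75 and 5.80 TPM, but its own spread was wide. ZFP36L2 minus ZFP36L1 was -0.85 ± 0.52 (log2 of TPM + 1), the smallest difference of the 8 pairs, and it was -0.56 without replicate 1. ZFP36, a further relative, stood at 12.0, 3.19 and 19.5 TPM.

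Of 22 other recruiting proteins, 17 were detected throughout, with a list median of 8.57 ± 0.940 TPM. CPEB1, which controls tail length of stored messengers, was the highest at 363, 104 and 152 TPM in replicates 1, 2 and 3. Like BTG4, it was highest in replicate 1. In all, 4 genes of the list were highest in replicate 1, 15 in replicate 2 and 2 in replicate 3. NANOS2, at the other end of the list, was listed at 0 in all 3 libraries.

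DCP1A, the cofactor that activates the decapping enzyme DCP2, measured 19.0, 35.4 and 26.1 TPM in replicates 1, 2 and 3, a mean of 26.8 ± 8.22 (SD, n = 3). Its paralog DCP1B was at 0.281, 0.233 and 0.0842 TPM, under 1 TPM in every library. DCP1A minus DCP1B was 4.50 ± 0.47 on the log2(TPM + 1) scale, and DCP1A made up 99.2 ± 0.580% of their joint TPM. With DCP1B so near 0 the size of the difference follows the pseudocount, at 6.51 with 0.1 and 2.58 with 5. A pseudocount cannot change its sign. DCP2 itself stood at 57.2 ± 5.41 TPM.

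Further decapping factors were well represented, with 17 of 18 detected throughout and a list median of 25.3 ± 3.29 TPM. Subunits of the LSM ring, which binds shortened messengers, led the list, with LSM5 at 1675 ± 204 and LSM7 at 1098 ± 197 TPM. The ring was uneven, since its subunit LSM4 was at 6.68 ± 1.29 TPM. LSM5 and LSM7 also belong to the ring that works in splicing, so their RNA is not specific to decay. Exonucleases and exosome subunits had a list median of 39.3 ± 1.41 TPM with 16 of 17 detected, led by EXOSC1 at 491 ± 129 and EXOSC8 at 361 ± 56.2. DIS3L2, the nuclease of uridylated RNA, was last at 0.717 ± 0.505 TPM, or 0.431 without replicate 1.

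The paralogs for terminal uridylation were uneven. TUT7, which adds uridines to short tails, measured 36.0, 86.0 and 56.4 TPM in replicates 1, 2 and 3. TUT4, its paralog with the same activity, was at 0.210 ± 0.0541 TPM and TUT1 at 1.17 ± 0.446, so 1 of 3 listed genes was detected throughout. Poly(A)-binding proteins and their regulators had a list median of 62.7 ± 12.0 TPM with 7 of 8 detected. PAIP1 led at 1354 ± 322 TPM, PABPC1, the main cytoplasmic poly(A)-binding protein of somatic cells, followed at 183 ± 79.5, and PAIP2B was last at 1.49 ± 0.825.

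Nonsense-mediated decay genes had a median of 10.5 ± 3.26 TPM with 8 of 8 detected. UPF3B stood at 140 ± 35.1 TPM, UPF2 at 38.3 ± 15.1 and UPF3A, the paralog of UPF3B, at 1.87 ± 0.831. Messenger storage proteins had a median of 9.37 ± 2.22 TPM with 7 of 8 detected. YBX1 was the highest of them at 435 ± 49.2 TPM and IGF2BP3 the second at 53.9 ± 20.6. ZAR1, an oocyte protein that keeps maternal messengers stored, was the lowest at 0.983 ± 0.724, or 0.566 without replicate 1. Over all 10 lists, 88 of the 100 other genes in the table were detected in every library, against 49.0% of all symbol rows. The lists include messenger storage and poly(A)-binding proteins, so not all 100 are decay factors. Of the 100, 8 had a higher mean than BTG4, among them PAIP1 and YBX1.

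**Figure D3:**
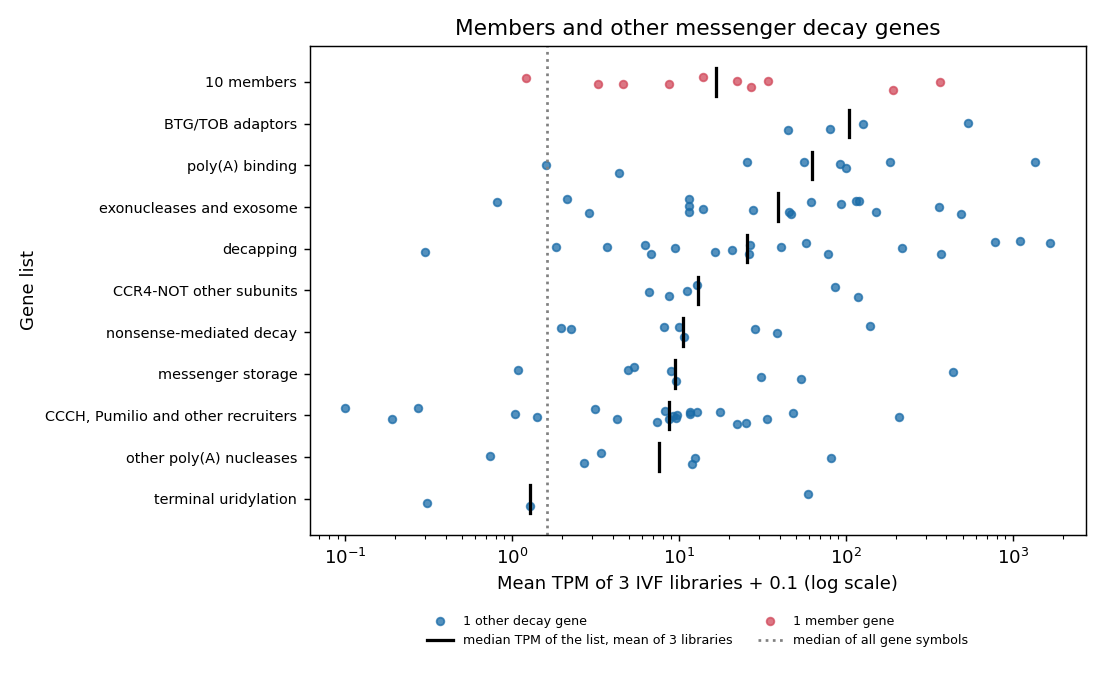
Mean TPM over the 3 IVF libraries, plus 0.1, on a log scale. Red points are the 10 genes and blue points the 100 other genes by list, labelled other decay genes. Those lists include messenger storage and poly(A)-binding genes. Black bars are the median of each list per library, averaged over the 3 libraries (16.7 TPM for the 10 genes). The dotted line is the same measure for all gene symbols, 1.51 TPM. Of the 10 genes, 9 lie to the right of the dotted line.

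In the order of levels, CNOT8 and DCP1A were the neighbours that did not differ beyond their spread. They changed places between libraries: CNOT8 was higher in replicate 1 only, and the mean log2 difference of 0.23 was smaller than its SD of 1.14. DCP1A was above CNOT1 and CNOT1 above CNOT6 in 3 of 3 libraries, by 0.28 ± 0.11 and 0.63 ± 0.21 (log2 of TPM + 1), although their ranges over libraries overlapped. The same held for ZFP36L2 above CNOT6L, by 0.46 ± 0.32, and CNOT6L above PAN2, by 1.04 ± 0.64. Ranges did not overlap between BTG4 and CNOT7 (0.91 ± 0.24), CNOT7 and CNOT8, CNOT6 and TOB1 (0.62 ± 0.42), or TOB1 and ZFP36L2 (0.77 ± 0.38). BTG4, CNOT7, CNOT6, TOB1, ZFP36L2, CNOT6L and PAN2 held the same place among the 10 genes in every library.

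Each of the 8 pairs kept its direction in all 3 libraries. An exact two-sided sign-flip permutation test gave p = 0.25 for each pair (n = 3), also 0.25 after Benjamini-Hochberg adjustment over the 8 pairs, and this is the smallest p that 3 libraries allow. No pair difference could therefore reach significance. With a pseudocount of 5 all 8 differences shrank. CNOT6L minus CNOT6, PAN2 minus PAN3 and ZFP36L2 minus ZFP36L1 became -1.20, -1.47 and -0.57. CNOT1 minus CNOT2 became 1.22. In the gene table CNOT7 overlaps VPS37A, CNOT8 overlaps FAXDC2, DCP1A overlaps CACNA1D, and CNOT1, CNOT6 and ZFP36L2 overlap other genes, none of the 10 lying wholly inside another. Whether counting used strand is not stated in the labels, and reads from a shared stretch cannot be told apart.

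The libraries split the 10 genes into sets, a pattern noticed after the values were seen. BTG4, CNOT7 and CNOT8 were highest in replicate 1, and the remaining 7, CNOT1, CNOT6, CNOT6L, PAN2, TOB1, ZFP36L2 and DCP1A, were highest in replicate 2. Among 9203 symbol rows whose mean reached 1 TPM, 35.7% were highest in replicate 1, 48.6% in replicate 2 and 15.7% in replicate 3. The counts of 3, 7 and 0 among the 10 genes rank the libraries in the same order, and no test of their difference from these shares was made. Under median-of-ratios scaling or quantile normalization ZFP36L2 was highest in replicate 1 and TOB1 in replicate 3, while the other 8 kept their library. Under these scalings the median symbol row of replicate 2 fell by 0.22 and 0.19 on the log2 scale. Replicate 2 also had the largest share of mitochondrially encoded RNA, 5.53% of TPM against 2.55 and 1.94% in replicates 1 and 3. With mitochondrially encoded and ribosomal protein genes removed and TPM rescaled, the same 3 genes were highest in replicate 1 and the same 7 in replicate 2.

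Spread between libraries was moderate for most of the genes. A range of at least 2-fold, taken as the highest over the lowest library on TPM + 1, was found for CNOT8 (2.53), PAN2 (2.67) and CNOT6L (2.01). That is 3 of 10, beside 29.1% of those 9203 symbol rows, a share near the background. CNOT6L lay just past the threshold, and BTG4 (1.85) and DCP1A (1.82) came next below it. Without replicate 1, or without replicate 2, a single gene passed, while the background fell to 11.3 and 8.77%.

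**Figure D4:**
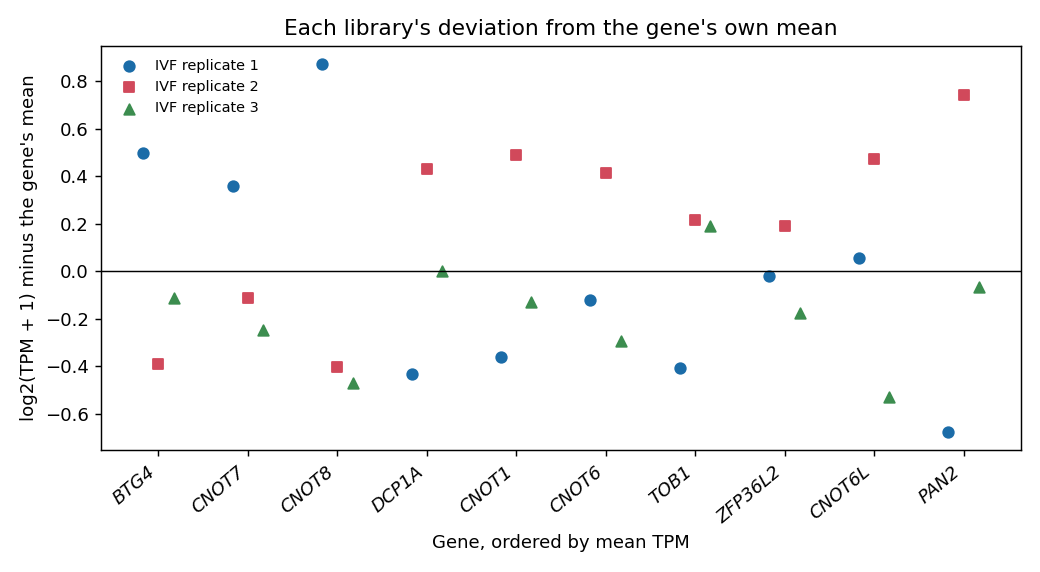
Difference of log2(TPM + 1) in each IVF replicate from the mean of the gene over the 3 libraries, for the 10 genes in order of level. Replicate 1 (circles) lies above 0 by 0.36 to 0.87 for BTG4, CNOT7 and CNOT8, and replicate 2 (squares) is the highest point for the other 7 genes.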

How the data were processed

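PolyA RNA of sheep 8-cell embryos was measured by Smart-seq2, with 3 IVF and 4 SCNT samples per the labels. The authors deposited 1 table of TPM values, and each IVF column sums to 1000000. The submitters' processing notes name fastp 0.23.4, a read trimmer, and HISAT2 2.2.1, an aligner. For the sheep genome build, the annotation and the counting step, nothing is stated there. Columns were matched to samples by name. Another 4 columns with per-sample values have names absent from the labels. They were left aside, and the groups were not compared.

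Row names matched the ARS-UI_Ramb_v3.0 gene table for 28875 of 31304 rows. It supplied mitochondrial symbols and overlapping genes, and no coordinates are given. Symbol rows exclude LOC, tRNA and other unnamed rows. Of the 101 other genes listed, SKIC2 was not analysed here, nor were the markers TPRX1 and LEUTX. CYP19A1 was read from the row CYP19.

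From TPM the mean, SD, rank, detection at 1 TPM and differences of log2(TPM + 1) were computed. The range step was tested on simulated data, and the sign-flip step on short made-up sets of differences. Named are the 10 genes, the second gene of each pair, the 2 highest and 1 lowest of each list, and the 3 rows nearest to BTG4. For 1 gene that this rule names, the value is not reported here. ZFP36, CNOT3, DCP2, LSM4 and the markers were named after their values were seen. The genes, lists and pairs were chosen with earlier results of these data known. Alternatives were other pseudocounts, thresholds, filters, scalings and leaving out each library. Python 3.11.15, numpy 2.4.6, pandas 2.3.3 and matplotlib 3.10.9 were used.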

Additional observations from a re-analysis of the deposited data

How the results depend on the processing

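No paired analysis was possible because only IVF libraries were analysed. Signs of all 8 pair differences were unchanged in 64 of 64 values under other pseudocounts, scalings and left-out libraries. Each pair had the same direction in all 3 libraries, and these changes keep the order of genes within a library. A reversal was therefore not possible, and the count is no test of the signs. The count of genes detected throughout, 9, was 10 at 0.1 TPM and 7 at 5 TPM. The share over all symbol rows was computed at 1 TPM only, so these counts have no background beside them. The count with a 2-fold range, 3, was 1 with a pseudocount of 5, where the share over symbol rows fell from 29.1 to 10.9%, and was 1 to 2 with 1 library removed, fewer libraries giving smaller ranges. The median level of the 10 genes, 16.7 TPM, was 14.7 to 17.8 with 1 library removed. It became 20.2 once mitochondrially encoded and ribosomal protein genes were taken out, which raises all other values by construction, by 0.22 to 0.28 (log2) for the median symbol row. Depth is unknown, so low values such as those of PAN2 and DCP1B cannot be told from sampling loss.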
